A study of Mus musculus with 36 samples.

Results

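Malat1, Neat1, Kcnq1ot1, Meg3, Rian, Mirg and Miat are long non-coding RNAs (lncRNAs) that stay in the nucleus of mouse cells. They were taken by name as 7 of the 25239 genes in the deposited expression table. The rule used no measured value, but earlier results of these data were known when they were chosen. N2a cells, a mouse neuroblastoma line, were transfected with plasmids encoding RfxCas13d or dRfxCas13d, and GFP-positive cells were collected for RNA-seq 48 h later. RfxCas13d is an RNA nuclease guided by a CRISPR RNA (crRNA), and dRfxCas13d is its form without nuclease activity. Each was combined with 1 of 7 targeting crRNAs (Sik3-S crRNA 1, Sik3-S crRNA 8, Map2 crRNA 1, Map2 crRNA 3, Mapt crRNA 4, Mapt crRNA 6 or Rbfox3 crRNA), with the non-targeting NT crRNA, or with no crRNA, which gave 18 groups of 2 libraries. The comparison of RfxCas13d with dRfxCas13d asks what the nuclease activity changes beyond the presence of the protein and the crRNA. All groups came from the same line and were transiently transfected, and no label tells if the libraries in a group stem from separate transfections, so that p-values measure the spread between libraries. The number of the Rbfox3 crRNA is 5 in the sample titles and 6 in the other labels.

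Values are FPKM, fragments per kilobase of transcript scaled to the depth of the library, which express a level relative to all other RNA in it. In RNA from many cells, less RNA per cell and fewer cells that hold an RNA cannot be told apart, and where in the cell an RNA was located was not measured. Steps between the low values of 1587 single-exon genes gave an estimated 10390000 to 16550000 fragments for each RfxCas13d library and 8690000 to 12170000 for each dRfxCas13d library. Among markers of sympathetic neuroblasts, Phox2a had a median of 106 FPKM in RfxCas13d and 94.0 FPKM in dRfxCas13d libraries, and Hand2 had 173 FPKM in RfxCas13d and 161 FPKM in dRfxCas13d libraries, whereas Th, Nefl and Nefm were near 0. A sum over 6 liver markers was 403.3 FPKM in RfxCas13d+NT crRNA replicate 1 and at most 7.55 FPKM in each other library. Fold changes that rest on this library are therefore also given without it, except in alternative fits.

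Nuclear lncRNAs act where they are made or in nuclear bodies. Malat1 gathers in nuclear speckles, which store splicing factors, and Neat1 is the scaffold on which paraspeckles assemble. Kcnq1ot1 silences neighbouring genes in cis from the paternal chromosome, whereas Meg3, Rian and Mirg are read from the maternal chromosome of the Dlk1-Dio3 imprinted domain and carry snoRNAs and miRNAs. Miat forms its own nuclear foci in neurons.

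In the mm10 build with GENCODE vM21, the genes differ much in size. Malat1 lies at chr19:5795690-5802672 and Neat1 at chr19:5824708-5845478, both on the minus strand and both with a longest transcript of 1 exon. Kcnq1ot1 lies at chr7:143203458-143296549 on the minus strand, antisense to Kcnq1, also as 1 exon, and its 93092 nt make it number 3 in exon length among 20557 genes. Meg3 (chr12:109541001-109571726), Rian (chr12:109603940-109661716) and Mirg (chr12:109729764-109749460) follow each other on the plus strand of chromosome 12, with 5, 2 and 12 exons in their longest transcripts. Miat lies at chr5:112213228-112229395 on the minus strand, with 7 exons. In the longest transcript of each gene, uridine made up 32.1% for Rian, 30.04% for Neat1 and 28.9% for Malat1. For the other members it was between 23.3% and 26.4%, against a median of 24.8% over the tested genes. The setting for strand in the authors' counting is not given in the sources used here, so reads of Kcnq1ot1 and of unspliced Kcnq1 RNA from the other strand cannot be told apart. Kcnq1 itself was at 0 to 0.051 FPKM in RfxCas13d libraries and 0 to 0.152 FPKM in dRfxCas13d libraries with targeting crRNAs.

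The end of Malat1 bears on how it was measured, because the libraries were made with an mRNA kit. Mature Malat1 has no poly(A) tail. RNase P cuts the transcript upstream of a tRNA-like RNA, the mascRNA, and the end that remains folds an A-rich tract between U-rich motifs into a triple helix. The stretch is shown with both U-rich motifs and the A-rich tract in capitals (mm10, chr19:5795972-5796073, minus strand, 102 nt).
Malat1 3′ end: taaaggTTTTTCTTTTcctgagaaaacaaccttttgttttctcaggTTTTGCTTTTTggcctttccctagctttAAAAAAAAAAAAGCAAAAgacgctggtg
The mascRNA begins at nucleotide 6692 of the 6983 nt transcript. The long form of Neat1 ends in a similar way, and its short form has a poly(A) tail. Which forms the libraries captured was not tested.

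None of the crRNAs was designed against these RNAs, and their spacers are shown to let the match to each be read. Capitals mark the longest stretch whose reverse complement occurs in a transcript of any member.
Sik3-S crRNA 1: caagcaCTGCCAGGTGCcacat
Sik3-S crRNA 8: gtcgCTCTGTGAATCAggcatc
Map2 crRNA 1: actctcAATTTTCACACgtcca
Map2 crRNA 3: gagcattgTCAAGTGAGCcaac
Mapt crRNA 4: cttagataaaAGAAAAGGCAGa
Mapt crRNA 6: ataaaAGAAAAGGCAGaggtcc
Rbfox3 crRNA 5: aAATCCATCCTGAtacacgacc
NT crRNA: TCACCAGAAGcgtaccatactc
The longest stretches were 12 nt, for Sik3-S crRNA 8 in Neat1 and for Rbfox3 crRNA 5 in Rian, out of spacers of 22 nt that match their own targets over all 22 nt. Over the whole spacer the fewest mismatches to any member were 5, for Rbfox3 crRNA 5 in Kcnq1ot1. The spacers of Mapt crRNA 4 and Mapt crRNA 6 overlap by 17 nt, so these are not independent sites.

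The levels differed widely. Malat1 was the most abundant member, with a median of 24.4 FPKM over the 36 libraries and an estimated 2087 fragments. Rian followed at 2.41 FPKM and Neat1 at 2.30 FPKM, and these neighbours overlapped in range. Mirg was at 1.02, Meg3 at 0.363, Kcnq1ot1 at 0.192 and Miat at 0 FPKM. By their estimated fragments, counting alone gives a coefficient of variation of 2.19% for Malat1 and 25.0% for Mirg at the median. A gene was tested if it had at least 1 FPKM in at least 2 libraries, which 4 members passed (Malat1, Neat1, Rian and Mirg) of 13293 genes in all. Kcnq1ot1, Meg3 and Miat fell below it and were tested in a fit of all 21157 genes above 0, a choice made after seeing the data.

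**Figure D1:**
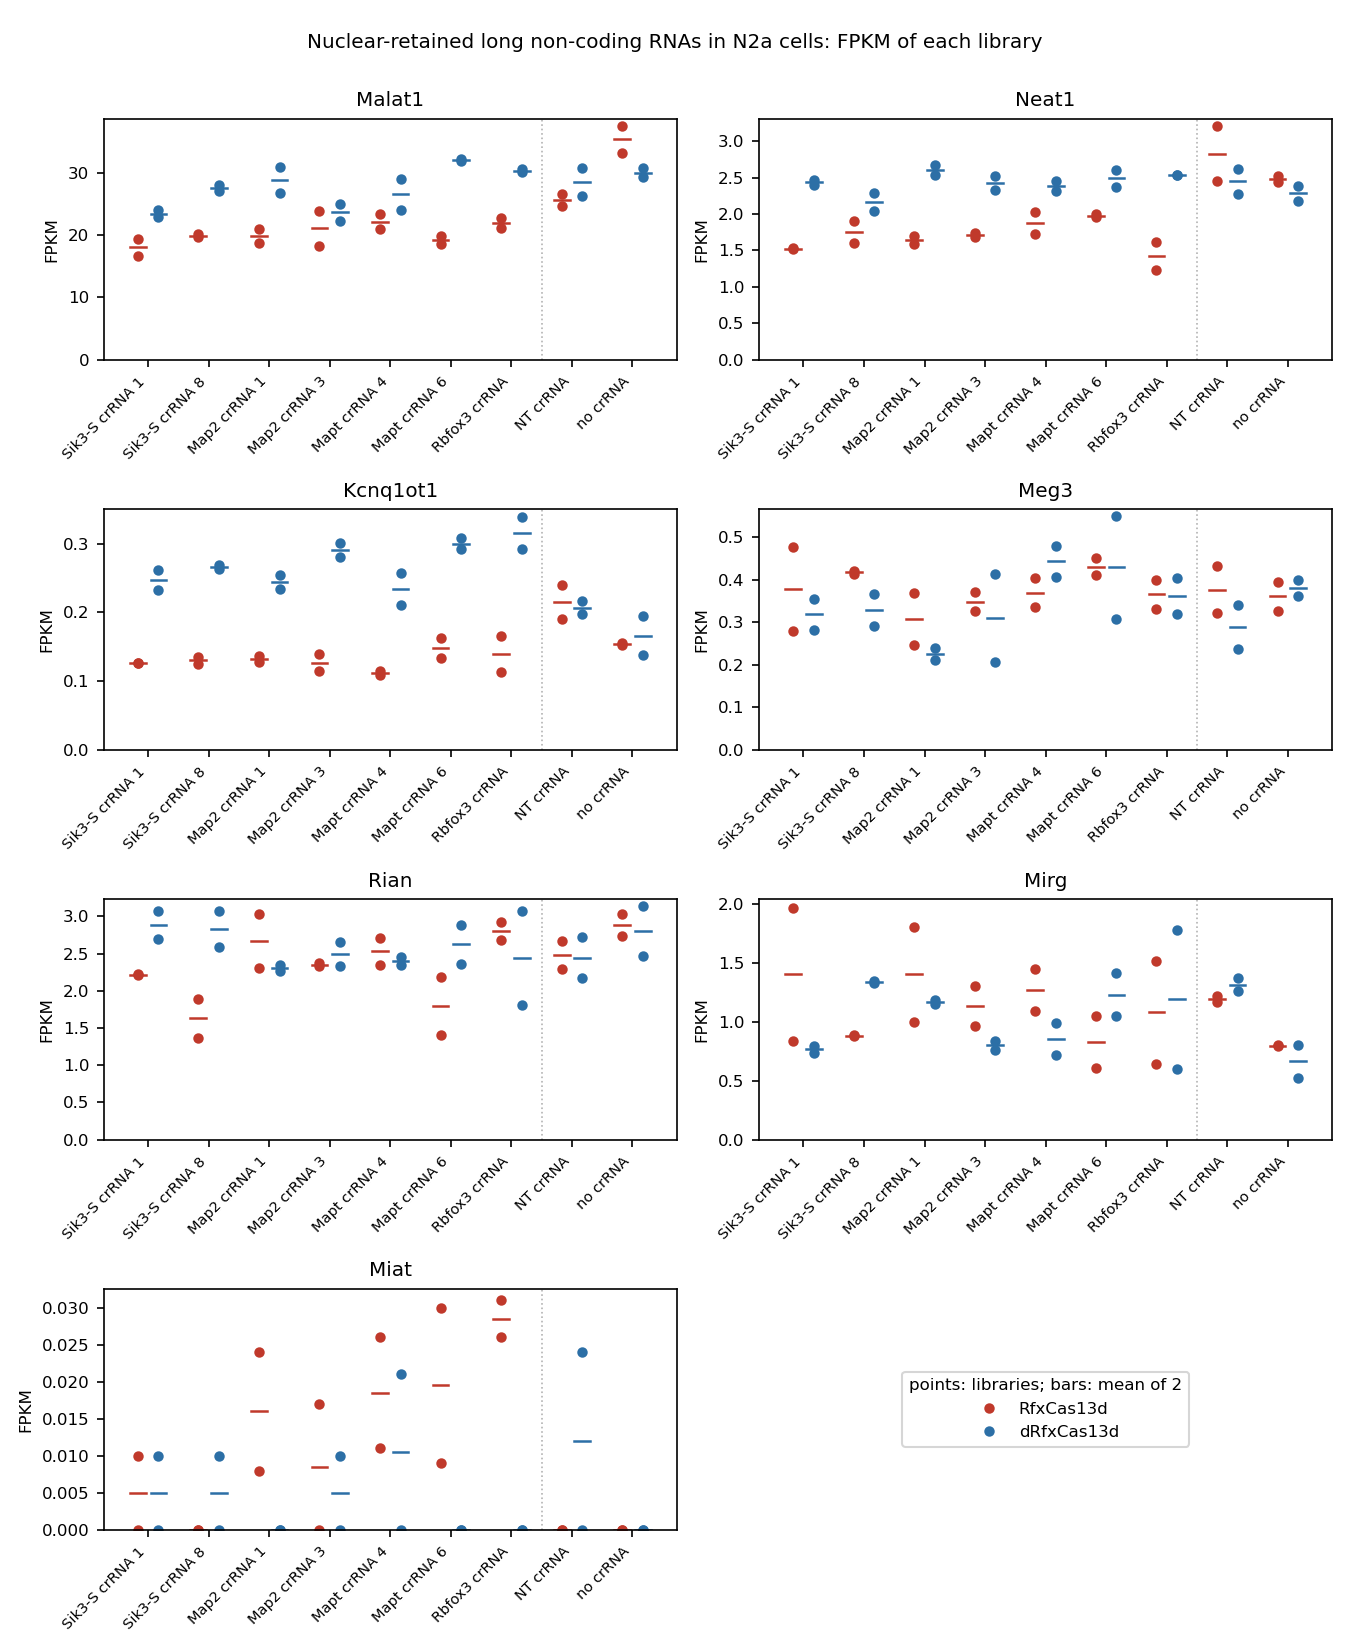
FPKM of the 7 lncRNAs in each of the 36 libraries, with RfxCas13d in red and dRfxCas13d in blue, by crRNA (points are libraries, bars are means of 2). With targeting crRNAs, left of the dotted line, the RfxCas13d points lie below all dRfxCas13d points for Neat1 and Kcnq1ot1, and Miat stays at or below 0.031 FPKM.

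Malat1, the speckle RNA, was lower with RfxCas13d under the targeting crRNAs. The 14 RfxCas13d libraries spanned 16.6 to 23.9 FPKM with a median of 20.02 FPKM, against 22.3 to 32.3 FPKM with a median of 27.6 FPKM in the 14 dRfxCas13d libraries. The ranges overlapped at their edges, where RfxCas13d libraries with Map2 crRNA 3, Mapt crRNA 4 and Rbfox3 crRNA (22.7 to 23.9 FPKM) lay above the lowest dRfxCas13d libraries, with Map2 crRNA 3 and Sik3-S crRNA 1 (22.3 and 22.95 FPKM). The means were 20.3 ± 2.04 FPKM with RfxCas13d and 27.5 ± 3.42 FPKM with dRfxCas13d (SD, n = 14 each). Malat1 stood at 74.7 ± 9.62% of its dRfxCas13d level over the 7 crRNAs, between 60.1% with Mapt crRNA 6 and 89.2% with Map2 crRNA 3. Both RfxCas13d libraries were below both dRfxCas13d libraries for 6 of 7 crRNAs. With Mapt crRNA 6 the values were 19.9 and 18.7 FPKM with RfxCas13d, against 32.3 and 32.0 FPKM with dRfxCas13d. The exception was Map2 crRNA 3, with 18.3 and 23.9 FPKM against 25.1 and 22.3 FPKM. An exact permutation test of the nuclease labels within each crRNA gave a two-sided p of 2.143e-05 over 279936 assignments.

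Neat1, the paraspeckle scaffold, was also lower, with no overlap. RfxCas13d libraries spanned 1.23 to 2.02 FPKM with a median of 1.69 FPKM, against 2.03 to 2.68 FPKM with a median of 2.45 FPKM in dRfxCas13d libraries. The gap was narrow: the highest RfxCas13d library, with Mapt crRNA 4, was at 2.023 FPKM and the lowest dRfxCas13d library, with Sik3-S crRNA 8, at 2.034 FPKM. The means were 1.70 ± 0.218 FPKM with RfxCas13d and 2.43 ± 0.162 FPKM with dRfxCas13d (SD, n = 14 each). Neat1 stood at 70.2 ± 9.90% of its dRfxCas13d level over the 7 crRNAs, lowest with Rbfox3 crRNA at 56.1% and highest with Sik3-S crRNA 8 at 81.2%. With Rbfox3 crRNA the values were 1.23 and 1.62 FPKM with RfxCas13d, against 2.54 and 2.54 FPKM with dRfxCas13d. All 7 crRNAs had both RfxCas13d libraries below both dRfxCas13d libraries, and the same exact permutation test gave 7.144e-06, the smallest p it can give. Every gene whose groups do not overlap must reach this p, and 13.4% of the tested genes did not overlap as lower and 11.8% as higher. The share of all genes with such counts by crRNA was not computed, for Malat1 or for Neat1.

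Kcnq1ot1, the silencing RNA of the Kcnq1 domain, had the lowest ratio of the 6 lncRNAs for which one could be given. RfxCas13d libraries spanned 0.109 to 0.166 FPKM with a median of 0.127 FPKM, against 0.210 to 0.339 FPKM with a median of 0.266 FPKM in dRfxCas13d libraries. The groups did not overlap, and they held an estimated 1974 fragments with RfxCas13d and 3299 fragments with dRfxCas13d in all. The means were 0.131 ± 0.0172 FPKM with RfxCas13d and 0.271 ± 0.0340 FPKM with dRfxCas13d (SD, n = 14 each). Kcnq1ot1 stood at 48.4 ± 3.74% of its dRfxCas13d level, between 43.6% with Map2 crRNA 3 and 54.3% with Map2 crRNA 1. The mean with dRfxCas13d was lower in both controls, 0.2065 FPKM with NT crRNA and 0.166 FPKM with no crRNA. With RfxCas13d the means were 0.215 FPKM with NT crRNA and 0.1535 FPKM with no crRNA, the latter inside the range of its targeting libraries. The exact permutation test again gave its smallest p, 7.144e-06. Groups that do not overlap in this direction were found for 13.4% of the tested genes and for 8.9% of all genes above 0.

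**Figure D2:**
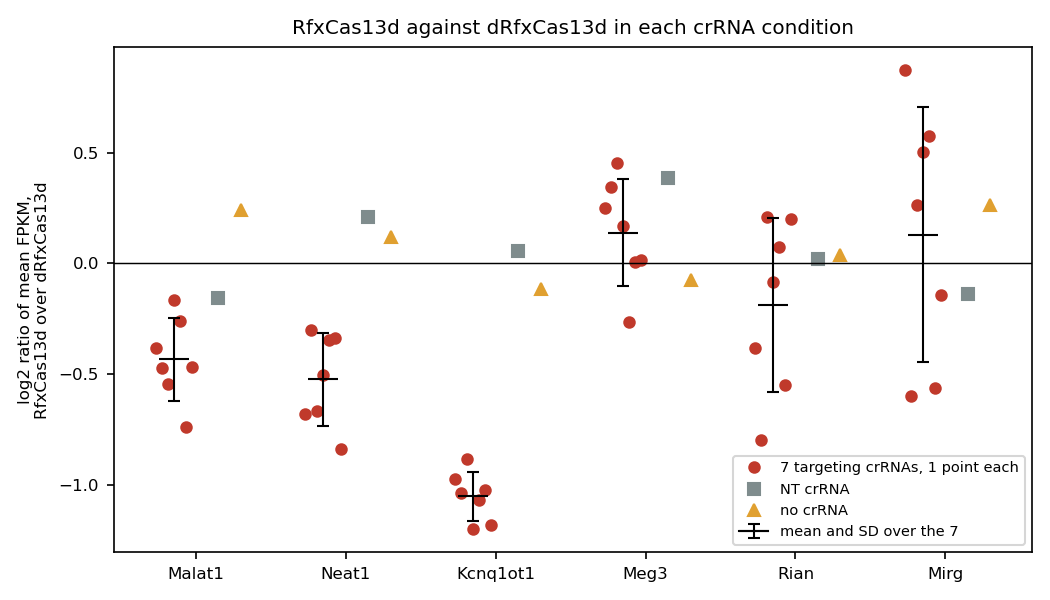
Log2 ratio of the mean FPKM, RfxCas13d over dRfxCas13d, in each crRNA condition for 6 of the lncRNAs (red circles are the 7 targeting crRNAs, the bar and whiskers their mean and SD, squares NT crRNA, triangles no crRNA). All 7 circles lie below 0 for Malat1, Neat1 and Kcnq1ot1, and Kcnq1ot1 has the tightest group, from -1.20 to -0.88, whereas the squares and triangles lie between -0.16 and 0.38.

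The imprinted RNAs of chromosome 12 gave no such pattern. Meg3, a tumour-suppressing RNA in human cells, was at 0.247 to 0.477 FPKM with RfxCas13d (median 0.384), against 0.207 to 0.549 FPKM with dRfxCas13d (median 0.337). Rian, the host of box C/D snoRNAs, was at 1.37 to 3.03 FPKM with RfxCas13d (median 2.32), against 1.81 to 3.08 FPKM with dRfxCas13d (median 2.53). Mirg, the host of a large miRNA cluster, was at 0.612 to 1.97 FPKM with RfxCas13d (median 1.03), against 0.602 to 1.78 FPKM with dRfxCas13d (median 1.02). All of these ranges overlapped almost whole. Exact permutation p-values were 0.326 for Meg3, 0.121 for Rian and 0.553 for Mirg. For Rian, both RfxCas13d libraries were below both dRfxCas13d libraries with Sik3-S crRNA 1, Sik3-S crRNA 8 and Mapt crRNA 6. With Sik3-S crRNA 8 the values were 1.37 and 1.89 FPKM with RfxCas13d, against 2.59 and 3.08 FPKM with dRfxCas13d. Mirg was above with 3 crRNAs and below with 1, over counts of 7 to 36 fragments a library.

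Miat was hardly detected. Its estimated fragments summed to 21 in the RfxCas13d libraries with targeting crRNAs, where 10 of 14 were above 0, against 5 in the dRfxCas13d libraries, where 4 of 14 were above 0. No library had more than 3 fragments, and of the 8 libraries without a targeting crRNA 1 held any, dRfxCas13d+NT crRNA replicate 1 with 2. The exact permutation p was 0.0158, unadjusted for the 7 members tested. At this depth no level of Miat can be given.

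The fit over all genes, limma on log2(FPKM + 1) with a single model of the 36 libraries, put the same values on 1 scale. Averaged over the 7 targeting crRNAs, Malat1 had a log2 fold change of -0.40 (SE 0.041, limma adjusted p = 7.13e-09) and Neat1 of -0.33 (SE 0.038, adjusted p = 3.33e-08). Rian was at -0.11 (SE 0.060, adjusted p = 0.0891) and Mirg at 0.07 (SE 0.089, adjusted p = 0.482). The added 1 in the logarithm shrinks the change of low RNAs, which is why Neat1 reads smaller here than in its FPKM ratio of -0.52. Of the 4 members tested, 0 were called at a fold of at least 2 by limma, where 0.715% of the 13293 genes were called lower and 1.65% higher. An unadjusted p under 0.05 was found for 2 of the 4. The share of all tested genes with an unadjusted p under 0.05 was not computed, in this or any other comparison. At an adjusted p under 0.05 and any fold, 2 of 4 were lower, where 38.1% of all tested genes were lower and 40.6% higher. In the fit of all genes above 0, with 0.1 in place of 1 added, Kcnq1ot1 had -0.67 (SE 0.071, limma adjusted p = 2.77e-08), where 30.8% of genes were lower at any fold. Meg3 was at 0.13 there (adjusted p = 0.351) and Miat at 0.13 (adjusted p = 0.0295, and 0.0562 with 1 added), where 26.5% of genes were higher.

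By single crRNA, the 4 tested members gave 28 comparisons of RfxCas13d with dRfxCas13d. None was called at a fold of at least 2 by limma. Of all tested genes, 3.06, 2.87, 3.63, 1.44, 3.17, 3 and 3.05% were called in either direction, in the order of the crRNAs above. An unadjusted p under 0.05 was found for 14 of the 28. Even at an adjusted p under 0.05, 46.1% (Map2 crRNA 3) to 54.7% (Mapt crRNA 4) of all tested genes passed in either direction. At any fold 11 were lower at an adjusted p under 0.05, where 25.4, 25.5, 25.7, 22.9, 26.8, 26.6 and 24.8% of all tested genes were, in the same order. Malat1 accounted for 5, from -0.33 with Sik3-S crRNA 1 (adjusted p = 0.0140) to -0.70 with Mapt crRNA 6 (adjusted p = 9.87e-06), and not for Map2 crRNA 3 (-0.16, adjusted p = 0.251) or Mapt crRNA 4 (-0.23, adjusted p = 0.0749). With Sik3-S crRNA 1 Malat1 had -0.23 (adjusted p = 0.0828) once a trend fitted to exon length (the length trend, a lowess curve over the tested genes) was removed, and an adjusted p of 0.0651 with only the libraries of the comparison. Neat1 accounted for 4, from -0.33 with Map2 crRNA 3 (adjusted p = 0.0103) to -0.55 with Rbfox3 crRNA (adjusted p = 9.72e-05). With the length trend removed none of these 4 was lower past the threshold, and Rbfox3 crRNA had -0.18 (adjusted p = 0.160). Neat1 was at -0.17 with Sik3-S crRNA 8 (adjusted p = 0.159) and at -0.23 with each Mapt crRNA (adjusted p = 0.0637 and 0.0624). Rian accounted for 2, Sik3-S crRNA 8 at -0.52 (adjusted p = 0.00863) and Mapt crRNA 6 at -0.38 (adjusted p = 0.0472). With the length trend removed these were -0.085 (adjusted p = 0.695) and 0.094 (adjusted p = 0.655), and with only the libraries of the comparison the adjusted p was 0.0619 and 0.186. Kcnq1ot1, in the fit of all genes above 0, was lower with each of the 7 crRNAs, from -0.53 with Map2 crRNA 1 (adjusted p = 0.0314) to -0.80 with Rbfox3 crRNA (adjusted p = 0.00197), where 17.6, 16.8, 18.4, 15.2, 18.1, 17.6 and 17.8% of genes were lower at any fold. None of these 7 passed with quantile normalization (-0.071 to -0.50, adjusted p = 0.0640 to 0.914) or with the length trend removed (-0.11 to 0.32, adjusted p = 0.213 to 0.846). Whether these crRNAs differ from each other was not tested, and 2 libraries against 2 cannot go below an exact permutation p of 0.333.

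Several of the single results rest on 1 library. For Malat1 with Sik3-S crRNA 1 the adjusted p was 0.182 without RfxCas13d+Sik3-S crRNA 1 replicate 1 and 0.0776 without dRfxCas13d+Sik3-S crRNA 1 replicate 1. For Malat1 with Map2 crRNA 3 the log2 fold change was 0.02 without RfxCas13d+Map2 crRNA 3 replicate 1 and -0.34 (adjusted p = 0.0280) without replicate 2. Malat1 with Mapt crRNA 4 reached an adjusted p of 0.0185 without dRfxCas13d+Mapt crRNA 4 replicate 1, and of 0.0458 or 0.0462 without either library of RfxCas13d+Map2 crRNA 3. Neat1 with Map2 crRNA 3 had 0.0554 without RfxCas13d+Map2 crRNA 3 replicate 1 and 0.0756 without dRfxCas13d+Map2 crRNA 3 replicate 1. Neat1 with either Mapt crRNA had 0.0465 to 0.0470 without either library of RfxCas13d+NT crRNA. Kcnq1ot1, in the fit of all genes above 0, had 0.0565 to 0.103 without single libraries of its own comparison, 3 with Sik3-S crRNA 1 (both RfxCas13d libraries and dRfxCas13d+Sik3-S crRNA 1 replicate 1), all 4 with Map2 crRNA 1 and dRfxCas13d+Mapt crRNA 4 replicate 2. Rian with Sik3-S crRNA 8 had 0.125 without RfxCas13d+Sik3-S crRNA 8 replicate 1 and 0.0826 without dRfxCas13d+Sik3-S crRNA 8 replicate 2. Rian with Mapt crRNA 6 passed in 12 of the 36 fits that each left out a library. The mean of Rian over the 7 crRNAs reached an adjusted p of 0.0494, 0.0321 or 0.0152 without RfxCas13d+Sik3-S crRNA 8 replicate 2, RfxCas13d+Mapt crRNA 6 replicate 2 or dRfxCas13d+Rbfox3 crRNA replicate 2. Miat, in the fit of all genes above 0, had adjusted p-values of 0.0510 to 0.0583 in 5 of 36 such fits. The 5 libraries were RfxCas13d+Map2 crRNA 1 replicate 1, RfxCas13d+Map2 crRNA 3 replicate 2, RfxCas13d+Mapt crRNA 4 replicate 2, RfxCas13d+Mapt crRNA 6 replicate 1 and dRfxCas13d+Mapt crRNA 4 replicate 2.

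With NT crRNA no member differed past the threshold between the nucleases. Malat1 had 26.6 and 24.7 FPKM in RfxCas13d libraries, against 26.4 and 30.8 FPKM in dRfxCas13d libraries. Neat1 had 3.21 and 2.45 FPKM with RfxCas13d, against 2.62 and 2.28 FPKM with dRfxCas13d, and its 3.21 FPKM was the highest of all 36 libraries and came from the library with the liver transcripts. Kcnq1ot1 had 0.190 and 0.240 FPKM with RfxCas13d, against 0.197 and 0.216 FPKM with dRfxCas13d. Meg3 averaged 0.377 FPKM with RfxCas13d and 0.289 FPKM with dRfxCas13d, a fold change of 0.30 in the fit of all genes above 0 (adjusted p = 0.591). Fold changes were -0.15 for Malat1 (SE 0.109, limma adjusted p = 0.356) and 0.14 for Neat1 (SE 0.101, adjusted p = 0.332). Rian was at 0.02 (adjusted p = 0.968) and Mirg at -0.08 (adjusted p = 0.860). In this comparison 0 of 4 members passed at any fold by limma, where 22.3% of all tested genes did, and 0 had an unadjusted p under 0.05. Kcnq1ot1 was at 0.03 (SE 0.188, adjusted p = 1) and Miat at -0.15 (adjusted p = 0.514) in the fit of all genes above 0. Without the library with the liver transcripts, RfxCas13d+NT crRNA replicate 1, Neat1 had 0.00064 (adjusted p = 1), Malat1 -0.20 (adjusted p = 0.3502), Rian -0.062 (adjusted p = 0.887) and Mirg -0.10 (adjusted p = 0.882). Kcnq1ot1 had 0.15 (adjusted p = 0.827) and Meg3 0.46 (adjusted p = 0.531) without it, and Miat was still at -0.15 (adjusted p = 0.687). With the length trend removed Neat1 was higher with RfxCas13d, at 0.29 (adjusted p = 0.0438), in a fit that kept RfxCas13d+NT crRNA replicate 1.

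Without a crRNA, Malat1 was on the other side. It had 37.6 and 33.3 FPKM with RfxCas13d, against 29.3 and 30.8 FPKM with dRfxCas13d, and the RfxCas13d values were the highest of the series. The fold change was 0.23 (SE 0.109, limma adjusted p = 0.261). Neat1 had 2.44 and 2.53 FPKM with RfxCas13d, against 2.39 and 2.18 FPKM with dRfxCas13d (0.08, adjusted p = 0.730). Kcnq1ot1 had 0.155 and 0.152 FPKM with RfxCas13d, against 0.194 and 0.138 FPKM with dRfxCas13d. Of the 4 members tested 0 passed at any fold by limma, where 5.36% of genes did, and 1 had an unadjusted p under 0.05.

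Whether the nuclease difference itself depended on the target was tested as an interaction, targeting crRNAs minus NT crRNA. Neat1 gave -0.48 (SE 0.108, limma adjusted p = 0.00174), the only 1 of 4 to pass at any fold, where 15% of genes passed lower, and 2 had an unadjusted p under 0.05. Without RfxCas13d+NT crRNA replicate 1, the library with the liver transcripts, it gave -0.33 (adjusted p = 0.0508), and with the length trend removed -0.18 (adjusted p = 0.231). Malat1 gave -0.25 (SE 0.116, adjusted p = 0.114), Rian -0.13 (adjusted p = 0.608) and Mirg 0.15 (adjusted p = 0.706). Kcnq1ot1 gave -0.70 (SE 0.201, adjusted p = 0.0170) in the fit of all genes above 0, where 9.96% passed lower at any fold. Its adjusted p was 0.0590 without dRfxCas13d+NT crRNA replicate 1, 0.143 with quantile normalization (-0.46) and 0.729 with the length trend removed (-0.14). Without RfxCas13d+NT crRNA replicate 1 Kcnq1ot1 gave -0.82 (adjusted p = 0.0206), Malat1 -0.19 (adjusted p = 0.365), Rian -0.051 (adjusted p = 0.8996) and Mirg 0.17 (adjusted p = 0.764). For NT crRNA minus no crRNA 0 of 4 passed at any fold by limma, where 2.53% of genes did, and 1 of 4 had an unadjusted p under 0.05. That was Malat1, at -0.38 (SE 0.154, adjusted p = 0.197), or -0.43 (adjusted p = 0.248) without RfxCas13d+NT crRNA replicate 1.

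Within dRfxCas13d, a crRNA gave no difference past the threshold. The targeting libraries against NT crRNA gave -0.06 for Malat1 (SE 0.082, limma adjusted p = 0.731) and -0.00 for Neat1 (SE 0.076, adjusted p = 0.988). Of the 4 members 0 passed at any fold by limma, where 8.43% of genes did, and 0 had an unadjusted p under 0.05. For NT crRNA against no crRNA 0 of 4 passed, where 3.67% of genes did, and again 0 had an unadjusted p under 0.05. Kcnq1ot1 stood at 0.210 to 0.339 FPKM in the 14 targeting dRfxCas13d libraries, against 0.197 and 0.216 FPKM with NT crRNA, a fold change of 0.27 (SE 0.142, adjusted p = 0.325). Within RfxCas13d, comparisons added after the values were seen gave -0.30 for Malat1 (SE 0.082, limma adjusted p = 0.00520) and -0.48 for Neat1 (SE 0.076, adjusted p = 2.71e-05), targeting against NT crRNA, where 20.3% of tested genes were lower at any fold. Kcnq1ot1 gave -0.43 (SE 0.142, adjusted p = 0.0265), where 15.6% of genes above 0 were lower. NT crRNA against no crRNA gave -0.44 for Malat1 (SE 0.109, adjusted p = 0.00791), where 7.03% were lower. These comparisons share the RfxCas13d+NT crRNA libraries. Without replicate 1 of them, targeting against NT crRNA gave -0.25 for Malat1 (adjusted p = 0.119), -0.34 for Neat1 (adjusted p = 0.0130) and -0.55 for Kcnq1ot1 (adjusted p = 0.0495), and NT crRNA against no crRNA gave -0.50 for Malat1 (adjusted p = 0.0272). That last difference had an adjusted p of 0.0804 without RfxCas13d+NT crRNA replicate 2, 0.1197 without RfxCas13d replicate 1 and 0.0942 with only the libraries of the comparison. Kcnq1ot1 had -0.32 (adjusted p = 0.165) without RfxCas13d+NT crRNA replicate 2, -0.091 (adjusted p = 0.772) with quantile normalization and 0.054 (adjusted p = 0.877) with the length trend removed.

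Fold changes fell with exon length over all tested genes. By their longest GENCODE transcript, all 7 members are longer than the median of 3129 nt over the tested genes, from 3822 nt for Mirg to 93092 nt for Kcnq1ot1. The deposited values of Mirg imply an entry of 1299 nt. Genes with at least 5000 nt of exons had a median log2 fold change of -0.13 over the 7 targeting crRNAs (5038 genes, 58.4% lower at any fold), against 0.01 over the 13018 tested genes with a length. The 1015 genes under 1000 nt had a median of 0.14, and the 495 genes of lncRNA types 0.04. A lowess trend of fold change on length was at -0.10 for the 6983 nt of Malat1, which lay -0.30 from it (limma adjusted p = 6.41e-07). The trend was at -0.45 for the 20771 nt of Neat1, which lay 0.11 above it (adjusted p = 0.00956), and 0.03 above it with 0.1 added in the logarithm (adjusted p = 0.587). For Rian the sign depended on which length was used, 0.29 above the trend at the 18234 nt of its GENCODE exons (adjusted p = 0.00012) and -0.19 from it at the 3579 nt that the deposited FPKM values imply (adjusted p = 0.00562). Kcnq1ot1 was 0.15 above a trend of -0.82 in the fit of all genes above 0 (adjusted p = 0.0760), at the edge of the lengths, where few genes set the trend. The 12 tested genes of at least 5000 nt whose transcripts all have 1 exon had a median of 0.26, with 2 lower and 8 higher at any fold. These classes by length and exon number were chosen after the values were seen, and the part of exon number was not tested.

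**Figure D3:**
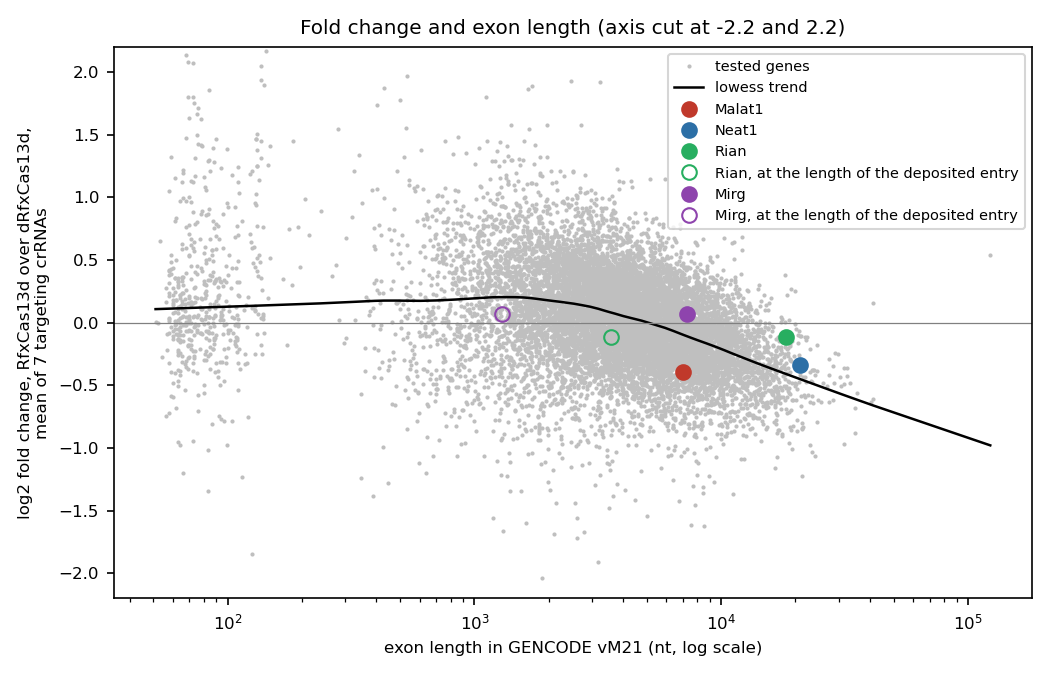
Log2 fold change, RfxCas13d over dRfxCas13d, averaged over the 7 targeting crRNAs, against exon length on a log scale for the tested genes (grey) with a lowess trend (line) and the 4 tested lncRNAs (filled, and open at the length implied by the deposited values). The axis ends at 2.2, with 7 genes above it. Malat1 lies below the trend and Neat1 slightly above it, and the position of Rian and Mirg against the trend changes with the length used.

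The proteins that build the bodies of these RNAs changed in both directions. Of 19 paraspeckle proteins tested, 6 were higher and 12 lower at any fold over the 7 targeting crRNAs, where 40.6% of all tested genes were higher and 38.1% lower, with a median of -0.10 against 0.01 for all tested genes. Cpsf6, a cleavage factor found in paraspeckles, had 29.3 ± 1.17 FPKM with RfxCas13d and 53.1 ± 2.78 FPKM with dRfxCas13d (SD, n = 14 each), a log2 fold change of -0.81 (SE 0.016, limma adjusted p = 2.14e-21). Rbmx was at -0.51 and the nuclear matrix protein Matr3 at -0.25. Of 17 nuclear speckle proteins 5 were higher and 12 lower, with a median of -0.08. The splicing factor Srsf2 had 326.6 ± 29.8 FPKM with RfxCas13d and 246.6 ± 12.4 FPKM with dRfxCas13d (0.42, SE 0.013, adjusted p = 3.90e-18). Luc7l3, of the U1 snRNP, was at -0.59 (SE 0.028, adjusted p = 4.77e-15). The median exon lengths of these lists were 5734 and 7278 nt.

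The factors that make and clear the ends of nuclear RNAs were read as 2 lists. Of 12 tested genes that act at the Malat1 and Neat1 3′ ends, mostly RNase P subunits, 8 were higher and 1 lower at any fold, against 40.6% higher and 38.1% lower over all tested genes, with a median of 0.36 and a median exon length of 2572 nt. Rpp25, an RNase P and MRP subunit, had 47.8 ± 6.18 FPKM with RfxCas13d and 19.1 ± 1.87 FPKM with dRfxCas13d (1.30, SE 0.034, adjusted p = 1.92e-19), the only one of the list called at a fold of at least 2. Pop7 was at 0.76, Pop5 at 0.52 and Rpp21 at 0.49. Of 13 members of the nuclear exosome and its adaptors 5 were higher and 6 lower, with a median of -0.00. Pabpn1, the nuclear poly(A)-binding protein, was at 0.56 (SE 0.015, adjusted p = 3.51e-19) and Zfc3h1, of the poly(A) tail exosome targeting connection, at -0.57 (SE 0.018, adjusted p = 4.68e-18).

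Other lncRNAs differed by list in their medians, while the values of the lists overlapped. Of 7 tested nuclear or chromatin-linked lncRNAs outside the members, 3 were higher and 3 lower, with a median of 0.05. Peg13, an imprinted RNA, had 7.92 ± 0.562 FPKM with RfxCas13d and 4.54 ± 0.502 FPKM with dRfxCas13d (0.71, SE 0.035, adjusted p = 9.77e-15). Ftx, from the X-inactivation centre, had 1.77 ± 0.158 FPKM with RfxCas13d and 2.74 ± 0.205 FPKM with dRfxCas13d (-0.41, SE 0.036, adjusted p = 3.95e-10). Of 10 tested lncRNAs that are mainly cytoplasmic, most of them snoRNA hosts, 10 were higher and 0 lower, against 40.6% and 38.1% of all tested genes, with a median of 0.80 and a median exon length of 2347 nt. Snhg1 had 691.4 ± 70.7 FPKM with RfxCas13d and 355.8 ± 30.1 FPKM with dRfxCas13d (0.98, SE 0.025, adjusted p = 1.29e-19). Zfas1 was at 0.92 and Gas5 at 0.71. The lists differ in length as well as in where the RNA resides, and the part of each was not tested.

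**Figure D4:**
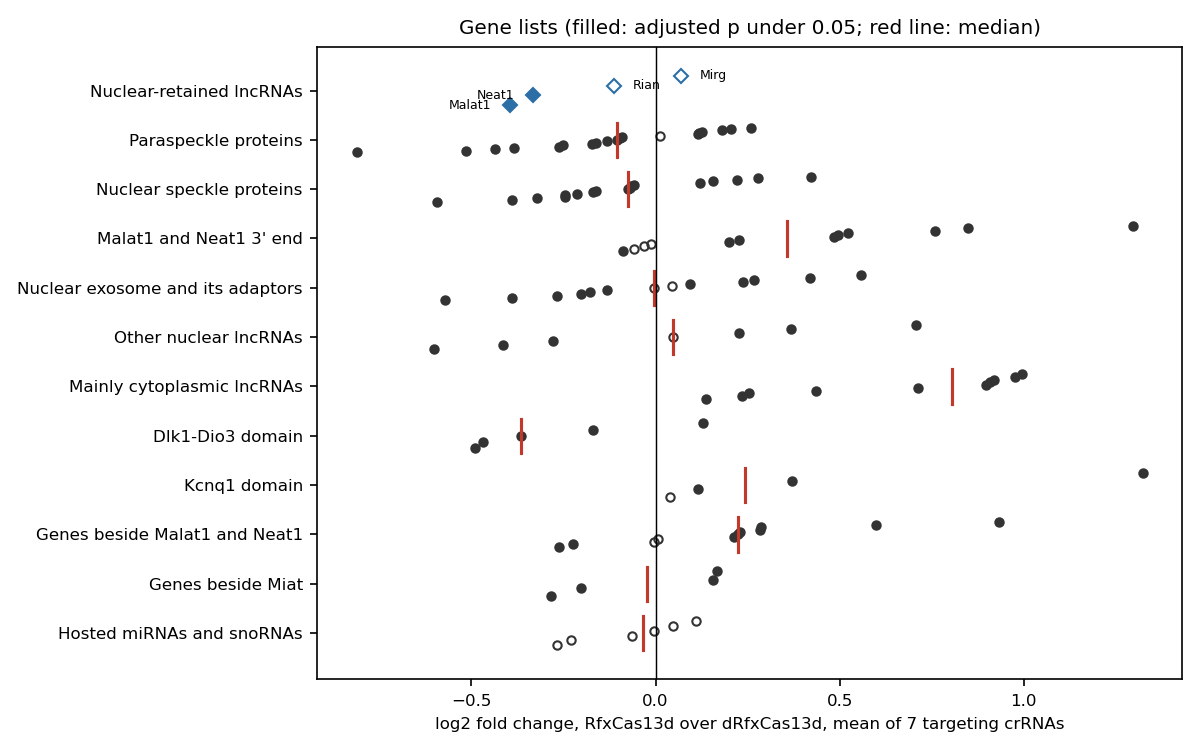
Log2 fold change, RfxCas13d over dRfxCas13d, averaged over the 7 targeting crRNAs, for each tested gene of 11 lists and for the 4 tested lncRNAs (diamonds). Filled symbols have an adjusted p under 0.05 and red lines are medians. The mainly cytoplasmic lncRNAs have a median of 0.80, against 0.05 for the other nuclear lncRNAs, and the points of these lists overlap.

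The neighbours of the lncRNAs were read for the domains that these RNAs regulate. In the Kcnq1 domain 4 of 11 genes were tested, with 3 higher and 0 lower, against 40.6% and 38.1% of all tested genes. Tssc4 had 33.5 ± 3.80 FPKM with RfxCas13d and 13.0 ± 2.09 FPKM with dRfxCas13d (1.32, SE 0.043, adjusted p = 8.38e-18), and Cd81 was at 0.37. Cdkn1c, which Kcnq1ot1 silences in mouse embryos, stayed at or below 0.637 FPKM in every library and could not be tested. In the Dlk1-Dio3 domain and beside it 5 genes were tested, with 1 higher and 4 lower and a median of -0.37. Rtl1, which lies between Dlk1 and Dio3, was at -0.17 (SE 0.050, adjusted p = 0.00411). Ppp2r5c had 15.2 ± 0.694 FPKM with RfxCas13d and 21.7 ± 0.987 FPKM with dRfxCas13d (-0.47, SE 0.023, adjusted p = 1.46e-14). The protein genes that name the domain were nearly silent, Dlk1 at no more than 0.240 FPKM and Dio3 at 0 FPKM. Of 11 tested genes beside Malat1 and Neat1 7 were higher and 2 lower, where 40.6% of all tested genes were higher and 38.1% lower, with Znrd2 at 0.93 and Map3k11 at -0.26. Beside Miat 2 of 4 were higher and 2 lower, between -0.28 for Tpst2 and 0.17 for Tfip11.

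Across the 36 libraries, the genes most like each tested member were taken by Pearson's r of the log2 values, as a description, since all share libraries and the nuclease difference. For Malat1 they were Map4 (r = 0.876), Ubn2 (0.868) and Por (0.868). For Neat1 they were Asxl1 (0.889), Serpinc1 (0.883) and Gm4952 (0.873). Serpinc1, a liver-made inhibitor of clotting, had 0.492 to 1.31 FPKM in RfxCas13d libraries with targeting crRNAs (median 0.987), against 4.09 to 6.70 FPKM in dRfxCas13d libraries (median 4.89). The sum of the 6 liver markers had 0.265 to 1.10 FPKM in RfxCas13d libraries and 1.72 to 7.55 FPKM in dRfxCas13d libraries, and its part in the Neat1 values was not tested. Over all libraries of a nuclease the medians differed most for Apoa1, 0.3735 FPKM with RfxCas13d and 1.89 FPKM with dRfxCas13d. Alb had 0.0595 against 0.21 FPKM and Ttr 0.0895 against 0.1145 FPKM. Apoa2 went the other way, with 0.0865 against 0 FPKM, and Fgb and Serpina1a had medians of 0 FPKM in both. For Rian the closest genes reached only 0.629 (Dnm1) and for Mirg 0.536 (Tsku). Between the members, r was 0.69 for Malat1 and Neat1, 0.70 for Neat1 and Kcnq1ot1 and 0.56 for Malat1 and Kcnq1ot1, over 36 libraries with 0.1 added in the logarithm, whereas Meg3, Rian and Mirg stayed between -0.19 and 0.35 against these and each other.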

How the data were processed

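The authors deposited FPKM values for each library, computed after trimming (Trim Galore), alignment to mm10 (Subread) and counting (featureCounts). They used DESeq2 for their own tests, whose output was not used. For tool versions, annotation and strandedness, nothing was given in the sources used here. Total RNA had been made into libraries with an mRNA kit. No counts were used, because the table holds FPKM values only, and fragments were estimated from the steps between its low values (96.3 to 99.4% whole within 0.1 fragment). The fragments of Kcnq1ot1 rest on a RefSeq length of 83437 nt for its entry, which was not read from steps. Each library was divided by a median-of-ratios factor and log2(FPKM + 1) was fitted as 18 group means (limma 3.58.1, R 4.3.3), with variances moderated along an intensity trend and Benjamini-Hochberg adjustment over the 13293 genes with at least 1 FPKM in at least 2 libraries. Calls needed a fold of at least 2 besides an adjusted p under 0.05. The step was tested on simulated data. Single values were tested by exact permutation over libraries.

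The members and gene lists were chosen with earlier results of these data known. All 7 members are named, the 4 tested genes of each list with the smallest adjusted p over the targeting crRNAs were open to naming, and the 3 genes with the highest correlation to each member. Genes below the filter, Rtl1 and neighbours named for their low levels were chosen after their values were seen. So were the classes of genes by exon length and exon number. Exon lengths and positions came from GENCODE vM21 (96.5% of symbols matched), and spacers from the study's designed oligonucleotides. Alternatives were the pseudocount, the filter, the scaling, the libraries in the fit, a replicate term, a length trend and leaving out each library.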

Additional observations from a re-analysis of the deposited data

Results flagged for a closer look

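The nuclease difference of Neat1 under targeting crRNAs differed from that under NT crRNA past the threshold, but not in every fit. The interaction was -0.48 (SE 0.108, limma adjusted p = 0.00174), where 15% of tested genes passed lower at any fold. Both RfxCas13d libraries were below both dRfxCas13d libraries for 7 of 7 targeting crRNAs and for neither control condition. Every gene whose targeting groups do not overlap as lower must give 7 of 7, and 13.4% of tested genes were of this kind. The interaction was -0.33 (adjusted p = 0.0508) without RfxCas13d+NT crRNA replicate 1, the library with the liver transcripts, and -0.18 (adjusted p = 0.231) with the length trend removed.

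Kcnq1ot1 gave the same kind of difference, an interaction of -0.70 (SE 0.201, limma adjusted p = 0.0170) in the fit of all genes above 0, where 9.96% passed lower. Again 7 of 7 targeting crRNAs were lower, and the targeting groups of 8.9% of genes above 0 did not overlap in this direction. The interaction was -0.66 (adjusted p = 0.0590) without dRfxCas13d+NT crRNA replicate 1, -0.46 (adjusted p = 0.143) with quantile normalization and -0.14 (adjusted p = 0.729) with the length trend removed.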

How the results depend on the processing

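The 8 counts of members called at a fold of at least 2 were 0 under each of the 13 alternatives and in each of the 36 fits that left out a library. Of the single fold changes, 445 kept direction and side of the threshold under the other alternatives, 45 changed sign, 38 lost the threshold and 8 gained it. With a library left out the counts were 1767, 9, 49 and 11. Mirg, Meg3 and Miat rest on few fragments, and depth allows no reading of Miat. With a mean of at least 5 FPKM as the filter, Malat1 was the only member left. Several alternatives were chosen after seeing the data: the fits of all genes above 0, the lengths of the deposited entries, and the length trend with a pseudocount of 0.1.

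All signs that changed outside the fits without a library came from removing the length trend. For Neat1 the fold changes were then 0.012 with Sik3-S crRNA 1, 0.31 with Sik3-S crRNA 8, 0.041 with Map2 crRNA 1, 0.043 with Map2 crRNA 3, 0.27 with Mapt crRNA 4, 0.30 with Mapt crRNA 6 and 0.11 over the 7 crRNAs (0.042 with Map2 crRNA 1, 0.044 with Map2 crRNA 3 and 0.12 over the 7 at the deposited length, the others alike). Higher with RfxCas13d past the threshold were those with Sik3-S crRNA 8 (limma adjusted p = 0.0159), Mapt crRNA 4 (0.0287), Mapt crRNA 6 (0.0188) and over the 7 (0.00956). With a pseudocount of 0.1 as well the fold changes were 0.30 with Sik3-S crRNA 8, 0.25 with Mapt crRNA 4, 0.28 with Mapt crRNA 6 and 0.033 over the 7, and none of these passed (adjusted p = 0.0871 to 0.587). For Rian they were 0.094 with Mapt crRNA 6, 0.29 over the 7 crRNAs and 0.14 in the interaction of targeting against NT crRNA, and with a pseudocount of 0.1 they were 0.00017, 0.30 and 0.12. At the deposited lengths Rian had -0.023 with NT crRNA, and Mirg -0.13 over the 7 crRNAs and -0.033 in that interaction. Kcnq1ot1, among all genes above 0, had 0.15 over the 7 crRNAs, 0.20 with Sik3-S crRNA 1, 0.26 with Sik3-S crRNA 8, 0.32 with Map2 crRNA 1, 0.23 with Mapt crRNA 4, 0.26 with Mapt crRNA 6, 0.00017 without crRNA and 0.054 within RfxCas13d, targeting against NT crRNA. The Neat1 interaction had -0.18 (limma adjusted p = 0.231) with the trend removed, and that of Kcnq1ot1 -0.14 (adjusted p = 0.729), or -0.46 (adjusted p = 0.143) with quantile normalization. Meg3 had 0.41 (adjusted p = 0.00442) over the 7 crRNAs with quantile normalization and 0.51 (adjusted p = 0.000333) with the trend removed.

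Leaving out each library changed a sign for 6 results, whose values ran from -0.34 to 0.023 for Malat1 with Map2 crRNA 3, -0.10 to 0.16 for Rian without crRNA, -0.10 to 0.13 for Rian with NT crRNA and -0.0090 to 0.24 for Mirg without crRNA. Among all genes above 0, Kcnq1ot1 ran from -0.078 to 0.15 with NT crRNA and from -0.21 to 0.089 without crRNA.

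Samples of the same replicate number did not deviate together (correlations of -0.03 to 0.06), so the numbers were not taken to pair them. A replicate block left the 0 calls at 0, and Rian with Mapt crRNA 6 lost the threshold at -0.38 (limma adjusted p = 0.0516). The replicate block with the length trend removed gave 0.11 for Neat1 and 0.29 for Rian over the 7 crRNAs, and otherwise the values listed for the trend alone.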

Other observations

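The small RNAs that Meg3, Rian and Mirg host were next to unseen in these libraries. Of 23 miRNA and snoRNA entries inside them, 10 were above 0 in any library and 6 passed the filter on low values. None of the 6 had an adjusted p under 0.05 over the targeting crRNAs by limma, between -0.27 and 0.11, where 78.7% of all tested genes did. The 6 were above 0 in 2 to 9 of 36 libraries, so a change in them could hardly have been seen. Mir341, inside Rian, reached the highest value, 6.14 FPKM, with 9 of 36 libraries above 0.

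Without a crRNA, Rpph1, the RNA of RNase P, was lower with RfxCas13d at -1.97 (limma adjusted p = 0.00302), a gene chosen after its value was seen. Over the 7 targeting crRNAs Rpph1 was higher, at 0.85 (limma adjusted p = 1.29e-05), and its spread was wide. The means there were 25.1 ± 17.5 FPKM with RfxCas13d and 12.3 ± 4.29 FPKM with dRfxCas13d (SD, n = 14 each). It has no poly(A) tail, and its part in the Malat1 values was not tested.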
